A study of Mus musculus with 8 samples.

Results

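The transcripts of 8 genes that set or mark the helper and cytotoxic branches of the T cell lineage were followed in mouse OT-I CD8+ T cells primed by different dendritic cells (DC). The genes were Zbtb7b, Runx3, Runx1, Cbfb, Cd4, Cd40lg, Gata3 and Foxp3, taken by symbol from a table of 43432 genes, and all 8 were found and passed the filter on low values. OT-I cells, here of the C57BL/6 strain, bear a transgenic receptor that recognises a peptide of ovalbumin, and were cultured for 72 hours with antigen-bearing DC before the divided T cells were sorted into lysis buffer. The T cells of 3 libraries had met migratory CD103+ DC (CD103-primed), those of 3 libraries resident CD8a+ DC of the lymph node (CD8a-primed), and those of 2 libraries, numbered 2 and 3, migratory CD11b+ DC (CD11b-primed). All groups shared the T cells' receptor, the strain and the culture time, and no library without DC is part of the design. Whether libraries of 1 kind stem from different cultures or mice is not stated, so the spread between them may be technical.

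ThPOK, the zinc finger protein encoded by Zbtb7b, is known to commit thymocytes to the CD4 helper lineage. Runx3 and Runx1 are DNA-binding proteins that pair with the non-DNA-binding partner Cbfb, and in CD8 lineage cells Runx complexes are known to silence Cd4 and Zbtb7b. Gata3 acts before ThPOK in helper commitment and directs type 2 helper responses, Foxp3 is the defining factor of regulatory T cells, and Cd40lg encodes the ligand by which helper T cells engage CD40 on DC and B cells. Mature cytotoxic T cells are known for high Runx3 and low Zbtb7b.

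The promoters of the Runx genes carry the letters that Runx proteins themselves recognise, and they are shown for that reason. The core motif ACCACA was searched on both strands (TGTGGT on the other) in RefSeq windows of 250 bases before to 50 bases after each start site on GRCm38.p6. Of the 8 genes 6 had windows, 10 in all, and no window was used for Cd4 and Cd40lg. The motif occurred in 3 of those 10 windows, 1 each of Runx3, Runx1 and Zbtb7b, and in 16.8% of all 32851 windows. A pair of core motifs lay in tandem at the first start site of Runx3 and of Runx1, while 1.81% of all windows held 2 or more matches. The 16 letters AACCACAGAACCACAA that span the pair, picked after the Runx3 and Runx1 windows had been read, were found in 4 windows of the table. These belonged to Runx3, Runx1, Runx2 (the remaining Runx gene, not among the 8) and Gm16225, whose window overlaps that of Runx3 on the opposite strand. Capitals below mark the core motif in 30 bases around each tandem pair.
Runx3, chr4:135120503-135120532, plus strand, 142 to 113 bases before the start site: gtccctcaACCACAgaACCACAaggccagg
Runx1, chr16:92826025-92826054, minus strand, bases 21 to 50 of the transcript: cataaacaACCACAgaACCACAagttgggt
Runx2, chr17:44814583-44814612, minus strand, bases 16 to 45 of the transcript: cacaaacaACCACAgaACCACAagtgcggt

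The second start site of Zbtb7b had 1 match on the opposite strand, 89 to 84 bases before the start. It is shown within the 250 bases before that start, which hold no exon in GENCODE M21. Zbtb7b was chosen for this as the only gene of the set whose libraries did not overlap between any pair of groups. Its difference between CD8a-primed and CD11b-primed cells did not pass the test. The match is a description of the letters and not evidence of binding.
Zbtb7b, chr3:89387672-89387921, minus strand: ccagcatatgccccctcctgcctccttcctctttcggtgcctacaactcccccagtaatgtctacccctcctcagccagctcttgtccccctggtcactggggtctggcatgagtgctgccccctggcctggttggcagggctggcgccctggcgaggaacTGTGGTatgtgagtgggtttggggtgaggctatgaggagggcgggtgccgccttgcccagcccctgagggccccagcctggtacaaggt

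**Figure D1:**
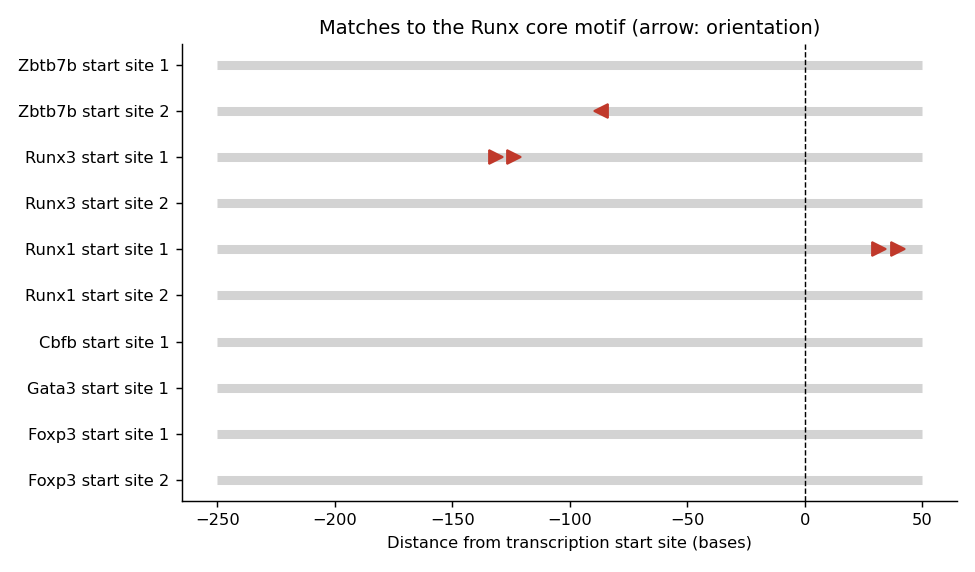
Map of the 10 RefSeq promoter windows of 6 of the genes, with distance from the transcription start site in bases on the horizontal axis and 1 grey bar per window. Red arrows mark ACCACA in its orientation, in a tandem pair at the first start sites of Runx3 and Runx1 and singly at the second start site of Zbtb7b.

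Libraries held 16293042 to 21973391 reads recovered from the deposited normalized counts. Levels are given as CPM (reads of a gene per 1000000 reads of its library). A list of 9 T cell genes (Cd3e, Cd3d, Cd3g, Cd8a, Cd8b1, Trac, Cd2, Cd5 and Lck) was detected in full in all 8 libraries. These genes summed to 5906 to 6044 CPM in CD103-primed cells, 4746 to 5537 CPM in CD8a-primed cells and 5869 to 6675 CPM in CD11b-primed cells. All but Cd8a and Cd8b1 are shared with CD4 T cells, so the sum cannot tell CD8 from CD4 T cells. Mitochondrially encoded transcripts took 6.69% to 7.72% of reads in CD103-primed cells, 9.12% to 11.8% in CD8a-primed cells and 7.02% to 7.20% in CD11b-primed cells. Replicate 2 of the CD8a-primed libraries was the highest in that share and in the share of its 20 most abundant genes, 16.3%. Across all genes limma-trend on log2(normalized count + 1), with Benjamini-Hochberg adjustment and a threshold of 0.05, called 273 of 18971 between CD103-primed and CD8a-primed cells (169 higher, 104 lower; 210 and 74 with library size scaling). It called 63 between CD103-primed and CD11b-primed cells and 374 between CD8a-primed and CD11b-primed cells (203 higher, 171 lower; 166 and 215 with library size scaling). These counts rest on single libraries: by limma-trend the first was 42, 50 and 47 without replicate 1, 2 and 3 of the CD103-primed libraries, 138 and 480 without replicate 1 and 3 of the CD8a-primed libraries and 3 without either CD11b-primed library, where edgeR called 149 and 148. The second was 5, 2 and 2 without replicate 1, 2 and 3 of the CD103-primed libraries, 112 and 238 without replicate 2 and 3 of the CD8a-primed libraries, and 1 and 0 without replicate 2 and 3 of the CD11b-primed libraries, where edgeR called 5 and 1. The third was 222 and 227 without replicate 1 and 2 of the CD103-primed libraries and 0 without either CD11b-primed library, where edgeR called 49 and 40.

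The 8 genes were selected on measured values of these same libraries: Zbtb7b had already been seen to be called, and the summed level of Zbtb7b, Cd4, Cd40lg and Foxp3 to be higher with CD103+ DC. For these 4 genes the comparisons of CD103-primed cells are a description without a p-value. The comparisons share control samples (the CD103-primed libraries stand in 2 of them), so they are given side by side and not set against each other.

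Zbtb7b was highest after priming by CD103+ DC, intermediate with CD11b+ DC and lowest with CD8a+ DC. The gene (ENSMUSG00000028042; GRCm38 chromosome 3, 89377644 to 89394776, minus strand) had 13.2, 14.9 and 10.4 CPM in the CD103-primed libraries, 3.31, 3.37 and 2.23 CPM in the CD8a-primed libraries and 7.45 and 3.64 CPM in the CD11b-primed libraries. Each CD103-primed library lay above each library of the other groups, and each CD8a-primed library below each CD11b-primed library, although replicate 3 of the CD11b-primed libraries stood close to the CD8a-primed libraries. The 95% exact Poisson interval of that replicate, 2.79 to 4.67 CPM, overlapped the 2.64 to 4.23 CPM of CD8a-primed replicate 2. Such intervals cover counting error only. The values rested on 42 to 291 reads per library. Mean levels were 12.8 ± 2.26 CPM in CD103-primed cells, 2.97 ± 0.643 CPM in CD8a-primed cells and 5.55 ± 2.70 CPM in CD11b-primed cells (SD; n = 3, 3 and 2). The CD103-primed mean was 4.33-fold the CD8a-primed mean and 2.32-fold the CD11b-primed mean. On the log2(normalized count + 1) scale, which can understate changes of low genes, CD103-primed cells differed from CD8a-primed cells by 2.05 (SE 0.42) and from CD11b-primed cells by 1.27 (SE 0.46). The last value was 1.78 without replicate 2 and 0.76 without replicate 3 of the CD11b-primed libraries.

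Zbtb7b was the 1 of the 8 genes that was called between CD103-primed and CD8a-primed cells, where 1.44% of all genes were called. That call is what had brought the gene forward, and nothing is read from it. By limma-trend it ended without replicate 1, 2 or 3 of CD103-primed cells (where the log2 fold change was 2.01, 1.95 and 2.18), with CD8a-primed replicate 1 left out (2.12) and without either CD11b-primed library (2.05 in both fits). With edgeR it also ended without any CD103-primed library or replicate 1 of the CD8a-primed libraries (2.01, 1.94, 2.17 and 2.10). It did not end in edgeR without a CD11b-primed library. The difference between CD8a-primed and CD11b-primed cells, -0.78 (SE 0.46), did not pass (limma-trend, adjusted p = 0.507), and it was -0.26 without replicate 2 and -1.29 without replicate 3 of the CD11b-primed libraries. The antisense gene Gm15417 shares 116 exon bases with Zbtb7b and stood at 0 to 2.41 CPM. The strand setting of the counting is not given in the sources used here.

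**Figure D2:**
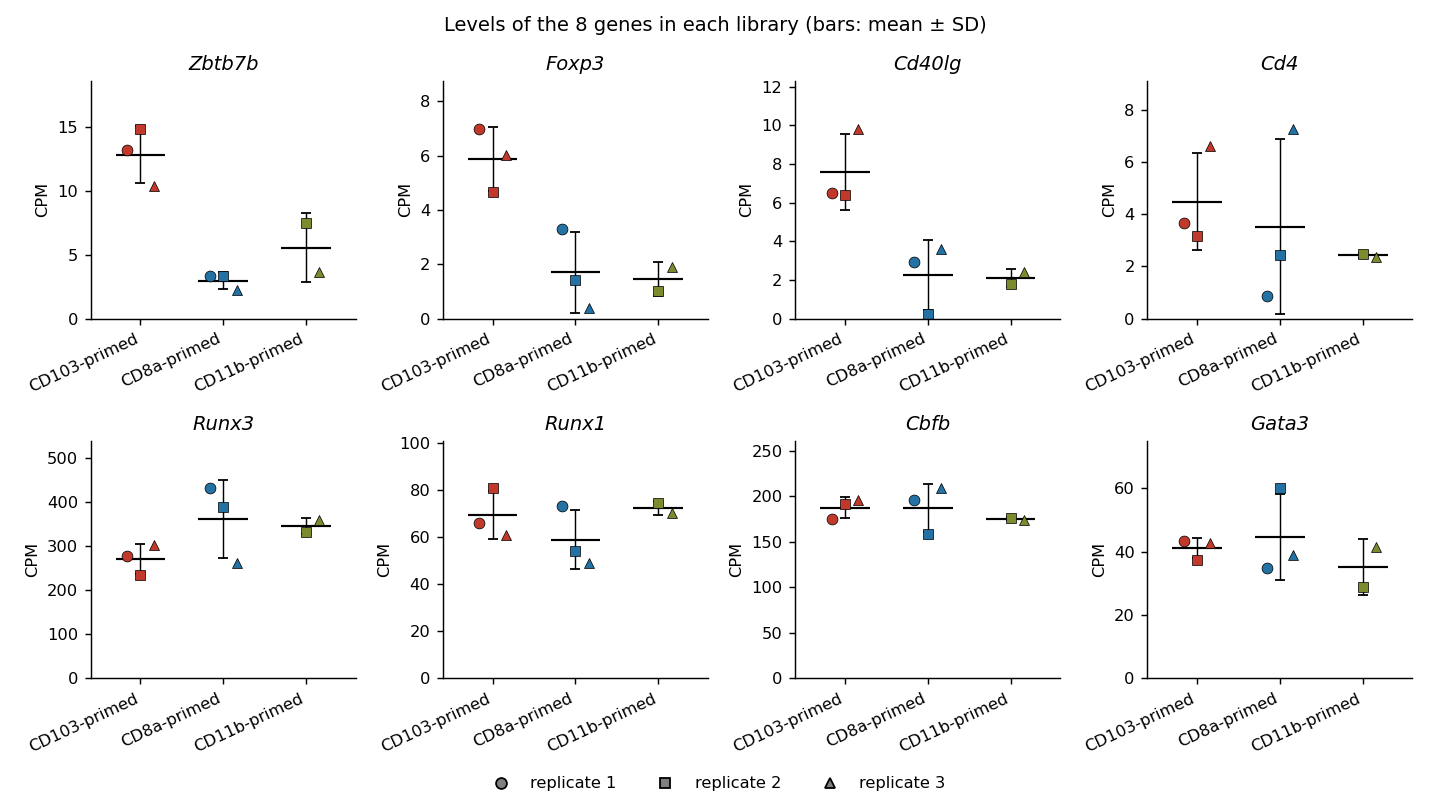
Level of each of the 8 genes in CPM (vertical axes start at 0) in each library of the CD103-primed, CD8a-primed and CD11b-primed groups, with 1 point per library, symbols for the replicate number, and the mean ± SD. Zbtb7b, Foxp3 and Cd40lg in the CD103-primed libraries lie above all libraries of the other groups, while Runx1, Cbfb and Gata3 overlap between all pairs of groups.

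Runx3, the Runx protein known for the cytotoxic lineage, was abundant in every library, and its mean was lowest in CD103-primed cells, a difference that did not pass the test. Runx3 (ENSMUSG00000070691; chromosome 4, 135120652 to 135177990, plus strand) had 277, 234 and 302 CPM in the CD103-primed libraries, 432, 390 and 263 CPM in the CD8a-primed libraries and 333 and 359 CPM in the CD11b-primed libraries. The CD103-primed libraries were all below the CD11b-primed libraries, and replicate 3 of the CD8a-primed libraries lay inside the CD103-primed range. Means were 271 ± 34.6 CPM in CD103-primed cells, 362 ± 88.2 CPM in CD8a-primed cells and 346 ± 18.2 CPM in CD11b-primed cells. CD103-primed cells differed from CD8a-primed cells by -0.45 on the log2 scale (SE 0.17; limma-trend, adjusted p = 0.244) and from CD11b-primed cells by -0.37 (SE 0.19; adjusted p = 0.592). With CD8a-primed replicate 3 left out the first difference was -0.67 and was called (adjusted p = 0.0105, against 0.104 to 0.535 over the other limma-trend fits and the edgeR and DESeq2 fits to all libraries). With edgeR Runx3 was also called without that library and in no fit without another. CD8a-primed and CD11b-primed cells differed by 0.08 (SE 0.19; adjusted p = 0.906). In the authors' deposited table the log2 fold changes of Runx3 were -0.47 between CD103-primed and CD8a-primed cells (adjusted p = 0.102) and -0.36 between CD103-primed and CD11b-primed cells (adjusted p = 0.466). The antisense gene Gm16224 lies within the Runx3 span at 14.4 to 31.7 CPM and shares 0 exon bases with it.

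Runx1, the Runx protein of early T cell development that mature T cells also use, showed no called difference. Runx1 (ENSMUSG00000022952; chromosome 16, 92601466 to 92826149, minus strand) had 66.3, 80.9 and 61.2 CPM in the CD103-primed libraries, 73.2, 54.3 and 49.3 CPM in the CD8a-primed libraries and 74.7 and 70.4 CPM in the CD11b-primed libraries. The ranges overlapped between every pair of groups. The log2 differences were 0.19 (SE 0.17; limma-trend, adjusted p = 0.695) for CD103-primed over CD8a-primed cells, -0.08 (SE 0.19; adjusted p = 0.948) for CD103-primed over CD11b-primed cells and -0.27 (SE 0.19; adjusted p = 0.596) for CD8a-primed over CD11b-primed cells. The antisense gene Gm26626 shares 106 exon bases with Runx1 and stood at 0 to 2.63 CPM.

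Cbfb, the shared partner subunit, had the smallest SE of the 8 genes and no called difference. Cbfb (ENSMUSG00000031885; chromosome 8, 105170674 to 105217989, plus strand) had 174, 191 and 196 CPM in the CD103-primed libraries, 195, 158 and 209 CPM in the CD8a-primed libraries and 176 and 174 CPM in the CD11b-primed libraries. The CD103-primed and CD11b-primed libraries fell within the CD8a-primed range. Its log2 differences were -0.05 (SE 0.12; limma-trend, adjusted p = 0.911), 0.09 (SE 0.13; adjusted p = 0.901) and 0.14 (SE 0.13; adjusted p = 0.720) for the CD103-primed over CD8a-primed, CD103-primed over CD11b-primed and CD8a-primed over CD11b-primed comparisons. The first of these was 0.0075 with library size scaling and 0.02 without replicate 3 of the CD8a-primed libraries.

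Levels of different genes were compared only per length, as CPM per kilobase of the merged exons in GENCODE M21, averaged over the 8 libraries. The order was Runx3 (64.7 CPM per kb), Cbfb (52.9), Gata3 (10.3), Runx1 (5.51), Cd40lg (3.37), Zbtb7b (1.31), Cd4 (0.893) and Foxp3 (0.700). Runx3 stood at 10.1, 6.94 and 11.9 times the length-scaled level of Runx1 in the CD103-primed libraries, 14.2, 17.3 and 12.8 times in the CD8a-primed libraries and 10.7 and 12.3 times in the CD11b-primed libraries. The CD8a-primed values were thus above all others, with replicate 2 of that group the highest. How often the ratio of 2 genes sets a group apart in this way was not computed. Zbtb7b, per length, stood at 4.26%, 5.70% and 3.09% of Runx3 in the CD103-primed libraries, 0.686%, 0.772% and 0.758% in the CD8a-primed libraries and 2.0% and 0.907% in the CD11b-primed libraries. The helper factor stood well below Runx3 in every library, also where it was highest. Zbtb7b was selected on its CD103-primed values, and nothing is read from the order of groups in its share of Runx3.

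**Figure D3:**
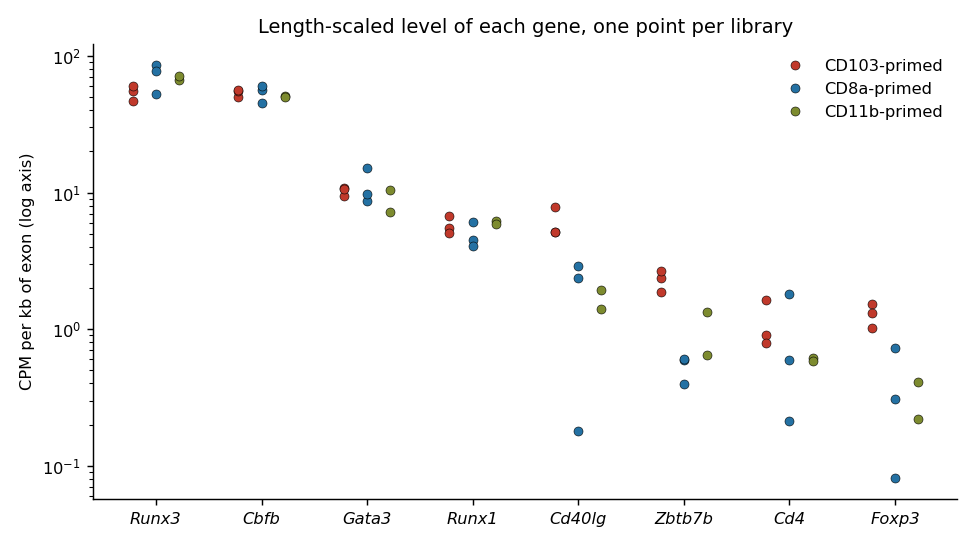
Length-scaled level (CPM per kb of exon, log axis) of the 8 genes, ordered from high to low, with 1 point per library in the colours of the 3 groups. Runx3 and Cbfb lie above the other 6 genes in each library, and Cd4 and Foxp3 have the lowest means, 0.893 and 0.700 CPM per kb.

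**Figure D4:**
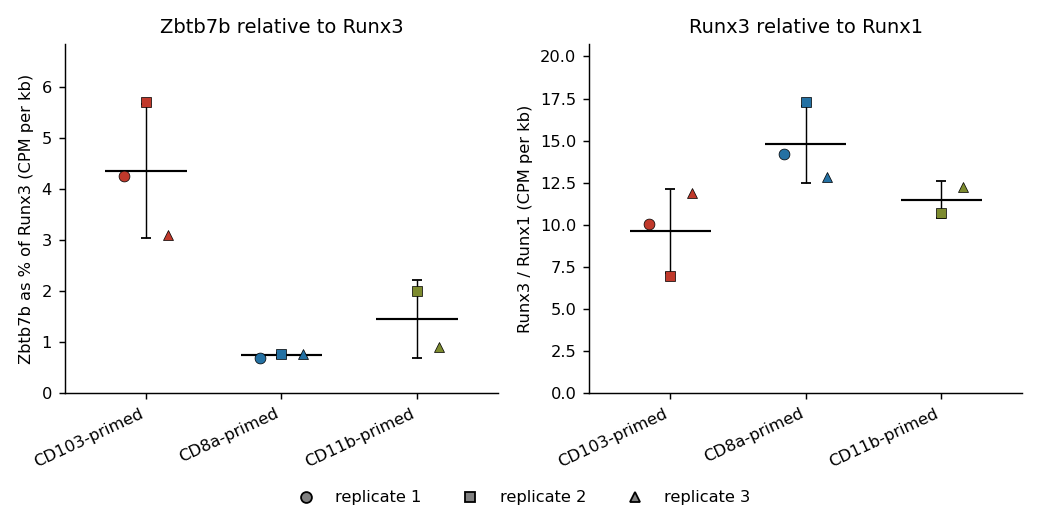
Length-scaled Zbtb7b as a percentage of Runx3 (left) and Runx3 as a multiple of Runx1 (right) in each library, with mean ± SD per group and both axes from 0. The CD103-primed libraries had the highest Zbtb7b share of Runx3, 3.09% to 5.70%, and the CD8a-primed libraries the highest Runx3 multiple of Runx1, 12.8 to 17.3. Zbtb7b was selected on its CD103-primed values, and nothing is read from the order of groups at left.

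Foxp3 and Cd40lg were low in every library and higher with CD103+ DC. Foxp3 (ENSMUSG00000039521; chromosome X, 7579676 to 7595243, plus strand) had 7.0, 4.66 and 6.01 CPM in the CD103-primed libraries, 3.31, 1.41 and 0.370 CPM in the CD8a-primed libraries and 1.0 and 1.88 CPM in the CD11b-primed libraries. All CD103-primed libraries were above all others, and the CD8a-primed libraries enclosed the CD11b-primed libraries. The lowest value came from 7 reads, with a 95% exact Poisson interval of 0.149 to 0.766 CPM that covers counting error only. The log2 differences were 2.14 (SE 0.73) for CD103-primed over CD8a-primed cells and 2.03 (SE 0.82) for CD103-primed over CD11b-primed cells. The first was 1.34 without replicate 3 and 2.83 without replicate 1 of the CD8a-primed libraries. Between CD8a-primed and CD11b-primed cells the difference was -0.11 (SE 0.82; limma-trend, adjusted p = 0.980) and its sign changed with the count tests. Foxp3 is uncertain as a locus, because the noncoding gene Flicr shares 853 of its exon bases on the same strand (0.0452 to 2.23 CPM) and Ccdc22 and Ppp1r3f share 590 and 266 on the opposite strand.

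Cd40lg (ENSMUSG00000031132; chromosome X, 57212143 to 57224042, plus strand) had 6.47, 6.40 and 9.83 CPM in the CD103-primed libraries, 2.95, 0.226 and 3.61 CPM in the CD8a-primed libraries and 1.76 and 2.41 CPM in the CD11b-primed libraries. Again each CD103-primed library was above each of the others, and replicate 2 of the CD8a-primed libraries stood apart with 5 reads (95% exact Poisson interval 0.0739 to 0.531 CPM). The log2 differences were 2.31 (SE 0.81) for CD103-primed over CD8a-primed cells, 1.13 without that replicate, and 1.81 (SE 0.91) for CD103-primed over CD11b-primed cells. Between CD8a-primed and CD11b-primed cells the difference was -0.50 (SE 0.91; limma-trend, adjusted p = 0.876), and 0.68 without that replicate. The authors' deposited table listed no adjusted p for Cd40lg.

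Cd4 followed another order of libraries. Cd4 (ENSMUSG00000023274; chromosome 6, 124864692 to 124888221, minus strand), the coreceptor of helper cells, had 3.66, 3.17 and 6.61 CPM in the CD103-primed libraries, 0.859, 2.41 and 7.27 CPM in the CD8a-primed libraries and 2.48 and 2.35 CPM in the CD11b-primed libraries. The CD8a-primed libraries held both the lowest and the highest value of all 8 libraries. CD103-primed cells were 0.70 (SE 0.69) above CD8a-primed cells on the log2 scale, -0.05 without replicate 1 and 1.46 without replicate 3 of the CD8a-primed libraries, and 0.79 (SE 0.78) above CD11b-primed cells. The first was 0.38 and the second 0.47 without replicate 3 of the CD103-primed libraries, and the first was 0.29 with edgeR and 0.30 with DESeq2. CD8a-primed and CD11b-primed cells differed by 0.09 (SE 0.78; limma-trend, adjusted p = 0.985). Within the CD8a-primed libraries the helper genes did not share 1 high or low library: replicate 3 was highest for Cd4 and Cd40lg and lowest for Foxp3 and Zbtb7b, while replicate 1 was highest for Foxp3 and lowest for Cd4. Per length Cd4 stood at 0.138% to 0.303% of Cd8a in the CD103-primed libraries, 0.0516% to 0.478% in the CD8a-primed libraries and 0.0990% to 0.120% in the CD11b-primed libraries.

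Gata3 was expressed at a moderate level with no called difference. Gata3 (ENSMUSG00000015619; chromosome 2, 9857078 to 9890034, minus strand) had 43.2, 37.5 and 42.6 CPM in the CD103-primed libraries, 34.7, 60.1 and 38.9 CPM in the CD8a-primed libraries and 28.8 and 41.4 CPM in the CD11b-primed libraries. The highest value was replicate 2 of the CD8a-primed libraries, and the ranges overlapped between every pair of groups. The log2 differences were -0.14 (SE 0.23; limma-trend, adjusted p = 0.861) for CD103-primed over CD8a-primed cells, 0.24 (SE 0.26; adjusted p = 0.845) for CD103-primed over CD11b-primed cells and 0.38 (SE 0.26; adjusted p = 0.574) for CD8a-primed over CD11b-primed cells. The first was 0.12 without replicate 2 of the CD8a-primed libraries.

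Across the set, the medians and counts of the comparisons of CD103-primed cells take in genes selected on those comparisons, and nothing is read from them. The CD103-primed over CD8a-primed comparison had 5 genes above 0 and 3 below, with a median log2 difference of 0.45 against 0.02 over all genes tested. In it 3 genes, Zbtb7b, Foxp3 and Cd40lg, were higher with no overlap of libraries, as were 8.77% of all genes (16.5% were apart in either direction). In the CD103-primed over CD11b-primed comparison 6 were above 0 (median 0.52 against -0.0022 over all genes). There 4 genes were higher without overlap (14% of all genes), the same 3 with Cd4, and Runx3 was lower without overlap (14.2% of all genes; 28.1% in either direction). In that comparison 0 of 8 were called by limma-trend (0.332% of all genes), edgeR or DESeq2, and 2, 3 and 3 had an unadjusted p under 0.05 in these tools (9.32% of all genes by limma-trend), a count that takes in genes selected on this comparison and from which nothing is read. In the CD8a-primed over CD11b-primed comparison 0 of 8 were called by any of these tools (1.97% of all genes by limma-trend), 0 had an unadjusted p under 0.05 in any of them (13.6% of all genes by limma-trend), the median was -0.02 against -0.04 over all genes, and Zbtb7b alone of the 8 was lower without overlap (15.1% of all genes; 27.9% in either direction).

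**Figure D5:**
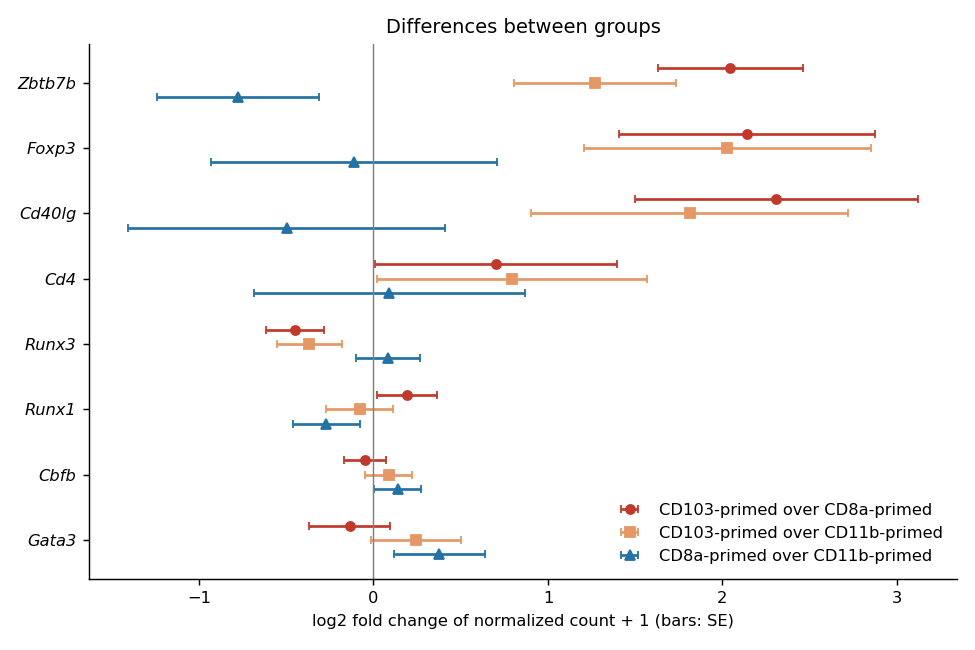
Log2 fold change of normalized count + 1 with SE for the 8 genes in the CD103-primed over CD8a-primed, CD103-primed over CD11b-primed and CD8a-primed over CD11b-primed comparisons. Zbtb7b, Foxp3 and Cd40lg lie between 1.27 and 2.31 in both comparisons of CD103-primed cells, and Runx1, Cbfb and Gata3 within 0.4 of 0 in all 3.

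Transcripts of other cells were set beside these levels. The 21 DC markers summed to 711 to 767 CPM in CD103-primed cells, 355 to 673 CPM in CD8a-primed cells and 711 to 873 CPM in CD11b-primed cells. A large part was Ccr7, which T cells also express, at 277 to 317 CPM in CD103-primed cells, 226 to 393 CPM in CD8a-primed cells and 322 to 338 CPM in CD11b-primed cells. Without it the other 20 summed to 425 to 450 CPM in CD103-primed cells, 129 to 280 CPM in CD8a-primed cells and 389 to 535 CPM in CD11b-primed cells. Between CD103-primed and CD8a-primed cells 4 of 20 tested DC markers were higher and 0 lower by limma-trend (0.891% and 0.548% of all genes). H2-Aa, an MHC class II chain, stood at 21.2 ± 5.63 CPM in CD103-primed cells and 3.84 ± 0.563 CPM in CD8a-primed cells (limma-trend, adjusted p = 0.00709). In CD11b-primed cells H2-Aa stood at 2.82 ± 0.334 CPM. The others were Ccl22, Flt3 and Cd74 (limma-trend, adjusted p = 0.0265, 0.0272 and 0.0458). In the CD103-primed over CD11b-primed comparison 1 rose, H2-Aa, and 1 fell, Sirpa (0.132% and 0.2% of all genes). In the CD8a-primed over CD11b-primed comparison 0 rose and 3 fell, Ccl22, Sirpa and Ccl17 (1.07% and 0.901% of all genes). Sirpa averaged 0.0347 CPM in CD103-primed cells, 0 CPM in CD8a-primed cells and 2.78 CPM in CD11b-primed cells. Ccl17 averaged 0.333, 0.0557 and 6.00 CPM in the same order of groups. Of the DC markers, Itgax was at 0 in 6 of the 8 libraries, of all 3 groups. Others were detected in all 8, among them Zbtb46 (9.13 to 31.5 CPM), Flt3 (4.94 to 28.7 CPM) and Fscn1 (2.97 to 21.3 CPM). In a library 15 to 19 of the 21 were detected. DESeq2 called 7, 3 and 4 of the DC markers in the CD103-primed over CD8a-primed, CD103-primed over CD11b-primed and CD8a-primed over CD11b-primed comparisons. In that order 11, 6 and 8 had an unadjusted p under 0.05 by limma-trend (13.2%, 9.32% and 13.6% of all genes). A list of 7 further genes of CD4 and regulatory T cells, several of which activated CD8 T cells also express, summed to 1985 to 2160 CPM in CD103-primed cells, 2028 to 2621 CPM in CD8a-primed cells and 2137 to 2335 CPM in CD11b-primed cells. Most of that sum was Ikzf2, at 1554 to 2062 CPM over all libraries. Gpr83, a receptor of regulatory T cells, stood at 0.524, 0.258 and 0 CPM in the CD103-primed libraries, 0.555, 2.0 and 0.0522 CPM in the CD8a-primed libraries and 1.67 and 0.294 CPM in the CD11b-primed libraries. Izumo1r, folate receptor 4, stood at 12.2 to 18.6 CPM in the CD103-primed libraries, 21.7 to 33.5 CPM in the CD8a-primed libraries and 27.2 to 31.0 CPM in the CD11b-primed libraries. Tnfrsf4, the receptor OX40, stood at 13.5, 7.58 and 16.1 CPM in the CD103-primed libraries, 5.28, 10.1 and 8.44 CPM in the CD8a-primed libraries and 5.88 and 5.29 CPM in the CD11b-primed libraries. Tnfrsf18, the receptor GITR, stood at 52.2 to 64.3 CPM in the CD103-primed libraries, 43.5 to 58.2 CPM in the CD8a-primed libraries and 45.6 to 52.4 CPM in the CD11b-primed libraries. Of the 7 genes Il2ra rose and Ctla4 fell in CD103-primed over CD8a-primed cells (limma-trend, adjusted p = 0.0232 and 0.0130), so the list did not move 1 way. Pax5 of B cells, Adgre1 and Mertk of macrophages and Ncr1 of natural killer cells were at 0 in all 8 libraries. Cd79a and Cd79b, also of B cells, were detected in all 8, with Cd79b at 6.46 to 21.9 CPM. Klrb1c, also of natural killer cells, was at 0 in only 1 library. The part of DC or CD4 T cell RNA in the levels of Zbtb7b, Cd4, Cd40lg and Foxp3 was not tested, and in such bulk samples more cells of a type and more RNA per cell cannot be told apart.

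The remaining marker lists had few calls. Of the 9 T cell genes 1 rose in CD103-primed over CD8a-primed cells, Cd2 (limma-trend, adjusted p = 0.00911), and 0 fell (0.891% and 0.548% of all genes). In the other comparisons 0 of the 9 were called by limma-trend. B cell genes summed to 7.10 to 11.4 CPM in CD103-primed cells, 10.7 to 23.2 CPM in CD8a-primed cells and 17.0 to 18.9 CPM in CD11b-primed cells, with 0 of 3 tested genes called by limma-trend, edgeR or DESeq2 and at most 1 at an unadjusted p under 0.05 in a comparison. Macrophage genes summed to 12.1 to 19.8 CPM in CD103-primed cells, 4.77 to 14.4 CPM in CD8a-primed cells and 6.76 to 13.9 CPM in CD11b-primed cells, nearly all of it Cd68, with 0 of 3 called by these tools and 0 at an unadjusted p under 0.05. Natural killer and innate lymphoid genes summed to 232 to 258 CPM in CD103-primed cells, 190 to 230 CPM in CD8a-primed cells and 267 to 295 CPM in CD11b-primed cells. Nearly all of it was Il7r (94.2 to 229 CPM over all libraries) and Eomes (59.8 to 99.7 CPM). Il7r, which T cells express, fell in CD8a-primed over CD11b-primed cells (limma-trend, adjusted p = 0.0233). Of the 4 tested genes of that list 0 were called by limma-trend or edgeR and 1 by DESeq2 in CD103-primed over CD8a-primed cells, where 4 had an unadjusted p under 0.05 in each tool (13.2% of all genes by limma-trend). In CD8a-primed over CD11b-primed cells 3 had an unadjusted p under 0.05 in each tool (13.6% of all genes by limma-trend), and in CD103-primed over CD11b-primed cells 0 had and 0 were called. Innate-like T cell genes summed to 8.67 to 14.5 CPM in CD103-primed cells, 6.90 to 14.9 CPM in CD8a-primed cells and 17.4 to 17.6 CPM in CD11b-primed cells, with 0 of 3 called by these tools and at most 1 at an unadjusted p under 0.05.

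Other genes of the CD4 and CD8 lineage decision were taken from lists of known genes, also chosen with earlier results in view. Over all genes the median log2 differences were 0.02, -0.0022 and -0.04 in the CD103-primed over CD8a-primed, CD103-primed over CD11b-primed and CD8a-primed over CD11b-primed comparisons, and the median of each list is given in that order. In the same order DESeq2 called 843 of 14746, 364 of 13881 and 948 of 13447 genes. Of 33 lineage choice factors, 2 rose and 1 fell in CD103-primed over CD8a-primed cells, where 0.891% of all genes rose and 0.548% fell. Tox, needed for CD4 lineage development in the thymus, averaged 143 ± 18.9 CPM in CD103-primed cells and 69.0 ± 16 CPM in CD8a-primed cells (limma-trend, adjusted p = 0.0167). Bhlhe40, a regulator of helper cytokine genes, averaged 74.2 ± 13.7 CPM in CD103-primed cells and 24.0 ± 15.2 CPM in CD8a-primed cells (limma-trend, adjusted p = 0.0264). In CD11b-primed cells Tox averaged 90.8 ± 17.7 CPM and Bhlhe40 65.3 ± 3.67 CPM, and neither passed in a comparison with that group. Ikzf3, the Ikaros family factor Aiolos, fell to 484 ± 66.3 CPM in CD103-primed cells, against 740.3 ± 30.3 CPM in CD8a-primed cells (adjusted p = 0.00872) and 821 ± 1.15 CPM in CD11b-primed cells (adjusted p = 0.0146). In the CD103-primed over CD11b-primed comparison 0 rose and 1 fell, Ikzf3 (0.132% of all genes rose and 0.2% fell), and in the CD8a-primed over CD11b-primed comparison 0 of 33 passed by limma-trend or edgeR and 1 by DESeq2, with 4 at an unadjusted p under 0.05 in each (1.07% of all genes rose and 0.901% fell by limma-trend). The medians of the list were -0.0020, -0.02 and -0.13. DESeq2 called 4, 2 and 1 of the 33 in the same order. By limma-trend 6, 8 and 4 had an unadjusted p under 0.05 (13.2%, 9.32% and 13.6% of all genes).

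Of 20 genes of the CD8 lineage and cytotoxic program 1 rose and 1 fell in CD103-primed over CD8a-primed cells by limma-trend (0.891% and 0.548% of all genes). In CD103-primed over CD11b-primed cells 0 rose and 1 fell (0.132% and 0.2%), and in CD8a-primed over CD11b-primed cells 0 rose and 2 fell (1.07% and 0.901%). DESeq2 called 3, 5 and 4 in the same order. By limma-trend 7, 8 and 8 had an unadjusted p under 0.05 (13.2%, 9.32% and 13.6% of all genes). Klrk1, the activating receptor NKG2D, averaged 57.6 ± 14.4 CPM in CD103-primed cells, 20.2 ± 7.76 CPM in CD8a-primed cells and 94.8 ± 6.26 CPM in CD11b-primed cells, and it rose in CD103-primed over CD8a-primed cells (limma-trend, adjusted p = 0.0134) and fell in CD8a-primed over CD11b-primed cells (adjusted p = 0.00210). Gzmb, a granule protease, averaged 12.9 ± 4.66 CPM in CD103-primed cells, 21.3 ± 14.3 CPM in CD8a-primed cells and 66.0 ± 14.4 CPM in CD11b-primed cells and fell in both comparisons over CD11b-primed cells (adjusted p = 0.0253 for CD103-primed and 0.0474 for CD8a-primed). Gzmk fell in CD103-primed over CD8a-primed cells, at 0.138 ± 0.130 CPM in CD103-primed cells against 9.89 ± 8.45 CPM in CD8a-primed cells (limma-trend, adjusted p = 0.00591). In CD11b-primed cells Gzmk stood at 1.23 ± 0.180 CPM. The coreceptor genes Cd8a and Cd8b1 of this list did not pass in any comparison by limma-trend. The medians of the list were -0.20, -0.23 and -0.28.

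Of the GATA3 and type 2 list 14 of 18 genes were tested, since 4 fell under the filter. Ccr4, a chemokine receptor of type 2 helper cells, rose in CD103-primed cells to 38.5 ± 2.38 CPM, against 7.64 ± 4.44 CPM in CD8a-primed cells (limma-trend, adjusted p = 0.00772). In CD11b-primed cells Ccr4 stood at 9.33 ± 4.42 CPM. Gfi1, a repressor that supports the expansion of type 2 cells, fell to 19.3 ± 3.06 CPM in CD103-primed cells, against 39.9 ± 1.48 CPM in CD8a-primed cells (adjusted p = 0.0101) and 50.2 ± 1.89 CPM in CD11b-primed cells (adjusted p = 0.0127). Il4ra, the interleukin 4 receptor chain, fell in both groups relative to CD11b-primed cells, at 87.0 ± 6.98 CPM in CD103-primed cells, 96.1 ± 11.4 CPM in CD8a-primed cells and 175 ± 11.9 CPM in CD11b-primed cells (adjusted p = 0.0139 and 0.0161). Ccr8 rose in both relative to CD11b-primed cells, at 8.02 ± 1.04 CPM in CD103-primed cells, 3.75 ± 1.04 CPM in CD8a-primed cells and 0.517 ± 0.482 CPM in CD11b-primed cells (adjusted p = 0.0146 and 0.0286). In all, 1 rose and 1 fell in the CD103-primed over CD8a-primed comparison by limma-trend (0.891% and 0.548% of all genes). In the CD103-primed over CD11b-primed comparison 1 rose and 2 fell (0.132% and 0.2%), and in the CD8a-primed over CD11b-primed comparison 1 rose and 1 fell (1.07% and 0.901%). The medians were 0.28, 0.19 and -0.30. DESeq2 called 2, 4 and 2 in the same order. By limma-trend 5, 6 and 5 had an unadjusted p under 0.05 (13.2%, 9.32% and 13.6% of all genes).

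Of 22 tested regulatory T cell genes 1 rose and 1 fell in CD103-primed over CD8a-primed cells by limma-trend (0.891% and 0.548% of all genes). Il2ra, a chain of the interleukin 2 receptor, rose to 36.0 ± 13.7 CPM in CD103-primed cells, against 10.4 ± 6.09 CPM in CD8a-primed cells (limma-trend, adjusted p = 0.0232), and was at 41.8 ± 0.811 CPM in CD11b-primed cells, above CD8a-primed cells (adjusted p = 0.0128). Ctla4, an inhibitory receptor, fell to 282 ± 26.5 CPM in CD103-primed cells, against 440 ± 63.6 CPM in CD8a-primed cells (limma-trend, adjusted p = 0.0130). In CD11b-primed cells Ctla4 stood at 444 ± 12.0 CPM. Capg, an actin-capping protein, was higher in both CD103-primed cells (37.1 ± 4.23 CPM) and CD8a-primed cells (35.5 ± 6.64 CPM) than in CD11b-primed cells (12.5 ± 5.07 CPM; adjusted p = 0.0228 and 0.00899). In the CD103-primed over CD11b-primed comparison 1 rose and 0 fell (0.132% and 0.2% of all genes). In the CD8a-primed over CD11b-primed comparison 1 rose and 1 fell (1.07% and 0.901% of all genes), and the medians were 0.10, -0.07 and -0.20. DESeq2 called 7, 3 and 3 of the list in the same order. By limma-trend 9, 7 and 5 had an unadjusted p under 0.05 (13.2%, 9.32% and 13.6% of all genes).

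Of 19 tested helper activation and follicular genes 2 rose and 0 fell in CD103-primed over CD8a-primed cells by limma-trend (0.891% and 0.548% of all genes), and the list medians were 1.2, 0.17 and -0.40. Tnfsf8, the CD30 ligand, averaged 119 ± 6.13 CPM in CD103-primed cells, 42.0 ± 9.79 CPM in CD8a-primed cells and 83.0 ± 5.14 CPM in CD11b-primed cells. Rora, a nuclear receptor of type 17 helper cells, averaged 85.7 ± 6.95 CPM in CD103-primed cells, 36.1 ± 6.47 CPM in CD8a-primed cells and 74.3 ± 3.03 CPM in CD11b-primed cells. Both passed in the CD103-primed over CD8a-primed comparison (limma-trend, adjusted p = 0.00156 for Tnfsf8 and 0.00508 for Rora) and fell in CD8a-primed over CD11b-primed cells (adjusted p = 0.0202 and 0.0148), where Pdcd1, the inhibitory receptor PD-1, rose (adjusted p = 0.0329). In the CD103-primed over CD11b-primed comparison 0 of 19 passed by limma-trend or edgeR and 1 by DESeq2, with 7 at an unadjusted p under 0.05 in each (9.32% of all genes by limma-trend). DESeq2 called 6 in the CD103-primed over CD8a-primed and 3 in the CD8a-primed over CD11b-primed comparison. There 9 and 5 had an unadjusted p under 0.05 by limma-trend (13.2% and 13.6% of all genes). Of 13 genes of the CD40 pathway, which Cd40lg engages in other cells, 0 passed in any of the 3 comparisons by limma-trend or edgeR, while DESeq2 called 1 in the CD103-primed over CD8a-primed comparison. Its medians were 0.22, 0.14 and -0.12. At an unadjusted p under 0.05 limma-trend had 4, 1 and 1 of the 13 in the CD103-primed over CD8a-primed, CD103-primed over CD11b-primed and CD8a-primed over CD11b-primed comparisons, against 13.2%, 9.32% and 13.6% of all genes.

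The genes whose pattern over the 8 libraries was most like that of each of the 8 were named by Pearson correlation of log2(normalized count + 1) among 8971 genes, as a description. Libraries of a group share their DC partner, so these values reflect group differences and single libraries alike. For Zbtb7b they were Igsf3 (r = 0.975), Kif3b (0.954) and Sh3bp1 (0.948). Igsf3, an immunoglobulin superfamily membrane protein, averaged 31.4 ± 5.86 CPM in CD103-primed cells, 6.30 ± 2.15 CPM in CD8a-primed cells and 16.5 ± 11.1 CPM in CD11b-primed cells, the same order of groups as Zbtb7b. For Foxp3 they were Tnks1bp1 (r = 0.976), St3gal1 (0.939) and Litaf (0.928), and for Cd40lg Stoml2 (0.990), Fgr (0.989) and Bend3 (0.972). Fgr, a Src family kinase, averaged 10.8 ± 3.54 CPM in CD103-primed cells, 4.98 ± 3.14 CPM in CD8a-primed cells and 5.26 ± 0.618 CPM in CD11b-primed cells. For Runx3 they were Actn1 (r = 0.974), Tiparp (0.967) and Nipal3 (0.965), with Actn1, an actin cross-linker, at 234 ± 22 CPM in CD103-primed cells, 321 ± 79.2 CPM in CD8a-primed cells and 333 ± 4.58 CPM in CD11b-primed cells. Runx1 was nearest to Vps45 (r = 0.944), Mafk (0.940) and Tyk2 (0.934), Cbfb to Vps16 (0.981), Polr2b (0.969) and Wdr74 (0.962), Cd4 to Sucla2 (0.963), Rbm34 (0.957) and Kbtbd8 (0.953), and Gata3 to Zbtb8os (0.934), Ckap2 (0.931) and Casp2 (0.923).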

How the data were processed

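The submitters' processing notes name STAR 2.4.2a, DESeq2 without a version and the build GRCm38. How reads were assigned to genes, with which annotation and strand setting, is not stated in the labels. The authors' normalized count is a signal, marked as normalized in the file headers. That each gene's count was divided by a factor of its library was inferred from the steps between values, as given below. Further columns deposited by the authors hold variance-stabilized log2 values, GC percent, and, per comparison, a fold change (a ratio), its log2, a p-value and an adjusted p; the last 2 kinds of value used here are the log2 fold change and adjusted p of Runx3. Read numbers were recovered from the steps between values under 1000, of which 100% were whole to within 0.1 of a read in all 8 libraries.

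CPM was computed from the normalized counts. With limma 3.58.1 in R 4.3.3, 1 limma-trend fit to log2(normalized count + 1) held all 8 libraries and 3 group means. It covered the 18971 genes whose normalized count averaged 1 or more, and p-values were adjusted over all of them. edgeR 4.0.16 (quasi-likelihood, TMM) and DESeq2 1.42.0 on the recovered reads were alternatives, with other scalings, filters and pseudocounts, a replicate block and fits without each library. Exon lengths and overlaps came from GENCODE M21 and promoters from RefSeq, both on GRCm38.

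The genes, lists and tests were chosen with earlier results of these data known. The rule for further names took up to 4 genes per list with the smallest adjusted p among those that passed, and the 3 genes of at least 5 CPM most correlated with each of the 8, passing over predicted genes and receptor segments. Gpr83, Izumo1r, Ikzf2, Tnfrsf4, Tnfrsf18, Ccr7, Itgax, Zbtb46, Fscn1, Cd79a, Cd79b, Klrb1c, Cd68, genes at 0 in all libraries, Runx2 and the overlapping genes were named after their values were seen.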

Additional observations from a re-analysis of the deposited data

How the results depend on the processing

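The CD103-primed over CD8a-primed comparison called 843 genes with DESeq2, 159 with no filter on low values, 181 with only its 2 groups in the fit and 181 with the replicate block. The CD103-primed over CD11b-primed comparison called 364 with DESeq2 and 340 with only its 2 groups, and the CD8a-primed over CD11b-primed comparison 948 and 81. Leaving out 1 library gave 3 to 480 genes in the first comparison, 0 to 238 in the second and 0 to 576 in the third, including edgeR fits added after seeing the data, in which an arm of 1 library is assumed to vary like the other groups. In the leave-one-out fits 0 to 2 of the 8 genes were called between CD103-primed and CD8a-primed cells and 0 in the other comparisons. Without replicate 2 and 3 of the CD11b-primed libraries the prior degrees of freedom of limma were 3.281 and 3.204, against 8.883 with all libraries. The cause of these changes in counts was not tested.

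Among the 8 genes, differences that had not passed changed sign as follows. For the CD103-primed over CD8a-primed comparison Cbfb was 0.0075 with library size scaling and -0.15 to 0.0249 in leave-one-out fits, Cd4 -0.0498 to 1.46 and Gata3 -0.31 to 0.12. For the CD103-primed over CD11b-primed comparison Gata3 was -0.0173 to 0.503 and Runx1 -0.18 to 0.0016. For the CD8a-primed over CD11b-primed comparison Cd40lg was 0.14 with edgeR and with DESeq2 and -1.16 to 0.68 in leave-one-out fits. In that comparison Foxp3 was 0.27 with edgeR, 0.28 with DESeq2 and -0.80 to 0.69 in leave-one-out fits, Cd4 -0.66 to 0.84 and Runx3 -0.050 to 0.31. Zbtb7b kept its direction in all 26 alternatives of each comparison, from 1.85 to 2.18 for CD103-primed over CD8a-primed cells. Its libraries did not overlap between any pair of groups, so leaving out a library could not reverse the sign by limma-trend. The gene had also been selected on these values, and nothing is read from the kept direction.

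For the replicate numbers, deviations of 7 same-numbered pairs correlated at -0.020 to 0.015, and the own number was the best match in 6 of 14 cases. Deviations of the 2 CD11b-primed libraries from their mean mirror each other, so their values are not independent. Whether same-numbered libraries were prepared together cannot be told from these values. With the replicate block 1, 0 and 0 of the 8 genes were called, as without it. It moved Cd4 in the CD103-primed over CD11b-primed comparison to 1.22. Depth limits Foxp3, Cd40lg and Cd4, which had as few as 7, 5 and 14 reads in a library.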
